A study of Mus musculus with 12 samples.

Results

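A set of 9 genes of glutamate uptake and the glutamine cycle were followed in sorted hippocampal astrocytes of mice that could lose the tumour necrosis factor receptor TNFR2 in astrocytes. The 9 genes were taken by name, with earlier results of these data known, and all 9 were found among the 56791 gene names of the deposited table. They were the glutamate transporters Slc1a2, Slc1a3 and Slc1a1, the neutral amino acid transporter Slc1a4, the enzymes Glul, Glud1 and Got1, and the glutamine transporters Slc38a3 and Slc38a1. The cells came from hippocampi of naive adult males and were isolated by fluorescence-activated sorting on ACSA-2, an astrocyte surface antigen encoded by Atp1b2. The control group (Ctrl) was Tnfrsf1bfl/fl, and the conditional knockout group (cKO) was GfapcreERT2:Tnfrsf1bfl/fl, in which a tamoxifen-inducible Cre recombinase is driven by the Gfap promoter. Both groups therefore carried the floxed Tnfrsf1b alleles, and they differed in the Cre transgene. Cre from this promoter acts only in cells in which it is active, and recombination needs tamoxifen. The series title raises a question about sex, but only males were measured here. The 12 libraries carried 6 A numbers, which were A1, A2 and A8 for Ctrl and A4, A9 and A10 for cKO, each with an S1 and an S2 library. The sample titles add rep1 to S1 and rep2 to S2, without saying what kind of replicate is meant. The labels define neither the A nor the S. An A number is therefore called a unit here, its S1 and S2 values were averaged, and n is 3 units per genotype. Nothing in the labels says that the units were single animals, so the tests measure only the spread between these units.

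At glutamatergic synapses, released glutamate is cleared mainly by astrocytes, through the sodium-coupled transporters GLT-1 (Slc1a2) and GLAST (Slc1a3). Inside the astrocyte, glutamine synthetase (Glul) joins glutamate with ammonia to form glutamine, while glutamate dehydrogenase (Glud1) and the aspartate aminotransferase of the cytosol (Got1) lead glutamate towards energy metabolism. Glutamine leaves the astrocyte through system N carriers such as SNAT3 (Slc38a3), and system A carriers such as SNAT1 (Slc38a1) serve its uptake by neurons, where it is turned back into glutamate. Slc1a1 encodes EAAC1, known mostly as a neuronal glutamate transporter, and Slc1a4 encodes ASCT1, an exchanger of alanine, serine and cysteine.

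The windows upstream of the RefSeq start sites (GRCm38.p6) were read for 7 of the 9 genes, and Slc38a3 and Slc38a1 had no entry. Shown are 3 of them: those of Slc1a2 and Slc1a3, the most abundant uptake transporters, and that of Slc1a4, the transporter whose 2 groups did not overlap. Each is written 5′ to 3′ on the strand of its gene, ends at or before the base ahead of the start, and has in capitals the letters matching GGGNNNNNCC, the core of NF-kB sites. NF-kB is a transcription factor family that acts downstream of TNF receptors. The Slc1a2 window (plus strand, chr2:102706188-102706355) is cut short at the first annotated exon base, and its RefSeq start lies 47779 bases from the gene start of the GENCODE M21 annotation, so other start sites are annotated for that gene. The Slc1a3 window (minus strand, chr15:8710808-8711057) and the Slc1a4 window (minus strand, chr11:20332714-20332963) are whole and hold no annotated exon base.
Slc1a2: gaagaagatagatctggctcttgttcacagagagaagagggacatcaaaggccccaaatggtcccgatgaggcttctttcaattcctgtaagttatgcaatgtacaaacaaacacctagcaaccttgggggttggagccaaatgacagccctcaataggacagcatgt
Slc1a3: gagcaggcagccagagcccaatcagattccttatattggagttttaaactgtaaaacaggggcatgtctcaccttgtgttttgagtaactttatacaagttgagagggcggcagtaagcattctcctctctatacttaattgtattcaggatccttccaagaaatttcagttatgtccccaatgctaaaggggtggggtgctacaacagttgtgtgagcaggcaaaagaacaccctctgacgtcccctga
Slc1a4: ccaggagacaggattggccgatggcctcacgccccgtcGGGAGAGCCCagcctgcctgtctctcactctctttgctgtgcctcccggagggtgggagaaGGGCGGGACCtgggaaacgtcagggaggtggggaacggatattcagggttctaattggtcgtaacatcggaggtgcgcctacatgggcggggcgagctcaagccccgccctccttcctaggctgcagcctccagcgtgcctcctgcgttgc
Neither of the windows read for Slc1a2 and Slc1a3 has a match on either strand. The sequence ahead of the GENCODE M21 gene start of Slc1a2, 47779 bases away, was not searched. The Slc1a4 window has matches at 2 places, 1 of which reads as a match on both strands. Over the 7 windows of 250 bases, 4 held the motif (Slc1a4, Glud1, Slc1a1 and Got1), as did 45.8% of all 32851 windows in the table. The motif TATAAA was found in 1 of the 7 windows (Slc1a3) and in 12.4% of all windows. TGANTCA, the AP-1 motif, and TGACGTCA, the cyclic AMP response element, were in 0 of the 7 and in 6.75% and 1.55% of all windows. Both strands were searched, and these motifs and windows were chosen after the expression values had been seen. A match is a run of letters and not a bound site. In base composition the windows of Slc1a2 and Slc1a3 were each 44.8% G or C with 1 and 2 CG pairs, against 64.8% with 16 CG pairs for Slc1a4. Glul had 15 CG pairs, Got1 11, Slc1a1 27 and Glud1 46, and the median window of the table had 6. Annotated exon bases filled all 250 bases of the Glul window. They took 86 bases of the Slc1a1 window, 29 of Slc1a2 and 17 of Glud1.

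The libraries held between 17311872 and 35323327 reads assigned to genes, recovered from the deposited FPKM (fragments per kilobase of exon, scaled to the assigned reads of the library), and 21342 to 26668 genes above 0. Tnfrsf1b, the targeted gene, was listed at 0 in 9 of the 12 libraries and exceeded 3 reads in 3, which were S1 of A1 and both libraries of A4. The highest count, 22 reads, was in a library labelled cKO, so at this depth the gene does not check the genotype labels, and cKO below means the units labelled so. Atp1b2, the sorted antigen, was high in both groups, at 665 ± 97.4 FPKM in Ctrl and 748 ± 83.1 in cKO (SD, n = 3). Markers of other cells were present, and no gene of the 8 marker lists was at 0 in all libraries. The summed FPKM of 12 oligodendrocyte markers was 1097 to 2354 in Ctrl and 313 to 753 in cKO, and that of 13 astrocyte markers was 4314 to 5562 and 5334 to 6022. In bulk RNA, a change in the number of cells of a type cannot be told apart from a change in RNA per cell.

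Slc1a2 had the highest level in every unit, at a mean of 1687 FPKM over the 6 units, and ranked 25 among all gene names. Its reads were 1.96% to 2.64% of a library's reads. Glul followed at 990 FPKM (rank 32) and Slc1a3 at 467 FPKM (rank 53), so the main uptake transporters and glutamine synthetase were among the most abundant transcripts of these cells. Glud1 stood at 217 FPKM (rank 98), Slc1a4 at 91.6 (rank 225) and Slc38a3 at 69.6 (rank 323). Slc38a1 (11.1 FPKM, rank 3558) and Got1 (9.30 FPKM, rank 4343) were far lower, and Slc1a1 was lowest at 0.617 FPKM (rank 20050). FPKM is per length, but the length counts all annotated exon bases of a gene, from 2539 for Got1 to 17236 for Slc38a1. Levels of different genes can therefore be compared only roughly.

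This order held in 6 of 6 units for every neighbouring pair except Slc38a1 and Got1, of which Slc38a1 was the higher in 3 of 6. Slc1a4 exceeded Slc38a3 in every unit by 1.12 to 1.53 times, although the ranges of the 2 genes over the units overlapped. Glutamine synthetase exceeded Slc1a3 by 1.76 to 2.78 times. Together the 9 genes took 2.84% to 3.72% of the reads of a library.

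**Figure D1:**
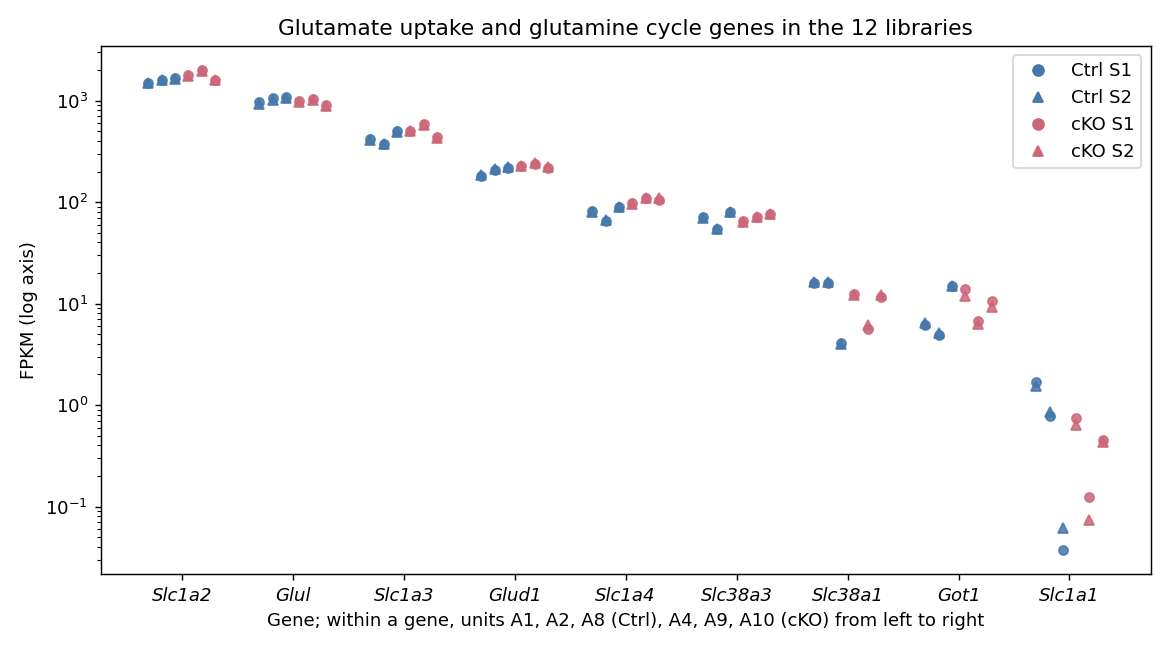
FPKM of the 9 genes (log axis) in each of the 12 libraries, with genes ordered by falling mean, circles for S1, triangles for S2, blue for Ctrl and red for cKO. S1 and S2 of a unit lie close together, Slc1a2 is highest throughout, and the 3 low genes Slc38a1, Got1 and Slc1a1 spread most between units.

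In the comparison of cKO with Ctrl, none of the 8 genes that could be tested passed an adjusted p under 0.05. The test was limma on log2(FPKM + 1), with Benjamini-Hochberg adjustment over 17540 genes that had a mean of at least 1 FPKM. The background was the same, since 0 of the 17540 genes (0%) passed, with 0.136 as the smallest adjusted p. Slc1a1 was under the filter. At an unadjusted p under 0.05, 1 of the 8 genes (Slc1a4) and 7.69% of all genes tested passed. All 3 cKO units lay above all 3 Ctrl units for 2 of the 8 (Slc1a4 and Glud1), against 5.76% of all genes, and for 0 of the 8 they all lay below, against 7.22% of all genes. The cKO mean was the higher in 6 of 8, and in 8622 of all 17540 genes, but in 3 of 8 when libraries were centred on the astrocyte marker score, in 3 of 8 with the oligodendrocyte marker score as a covariate and in 7 of 8 under upper quartile scaling. Leaving out 1 unit gave 5 of 8 (without A2) to 7 of 8 (without A1 or A9). The median difference of the 8 was 0.17 on the log2(FPKM + 1) scale, against -0.01 over all genes tested and 0.21 over the 13 astrocyte markers. With 3 units against 3, an exact permutation test cannot go below 0.1.

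**Figure D2:**
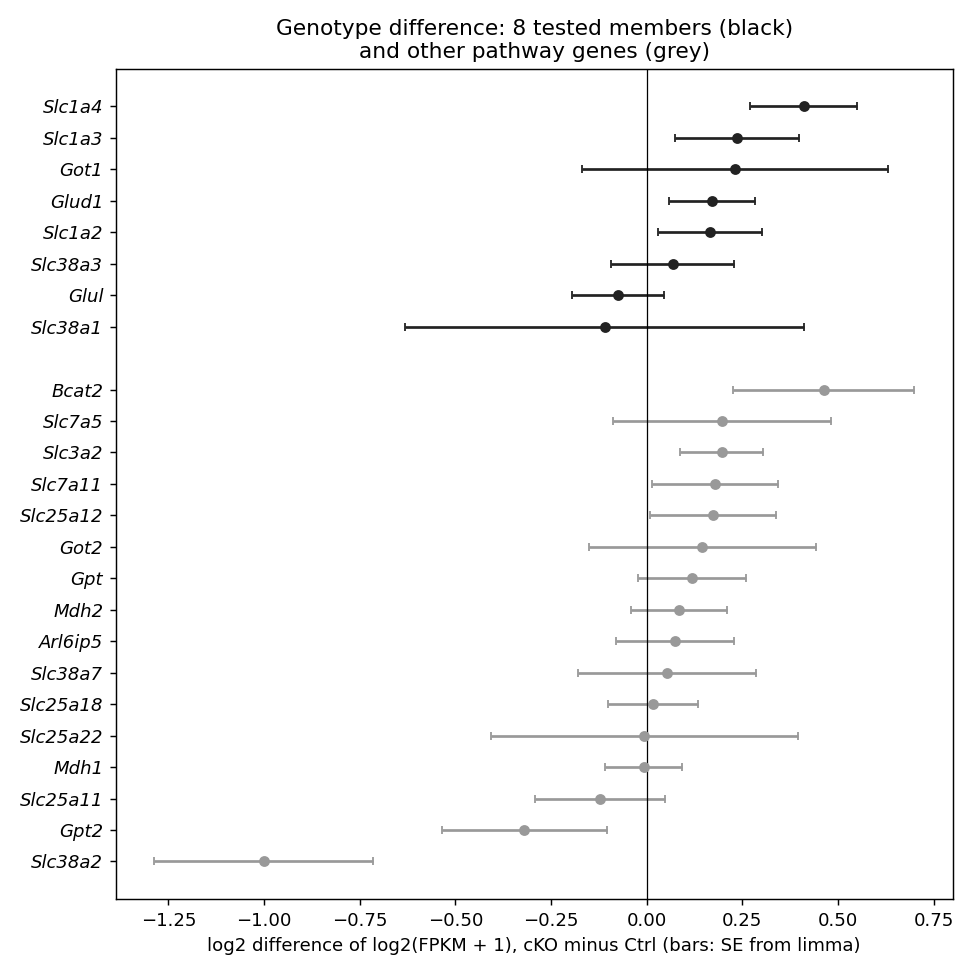
Difference in log2(FPKM + 1), cKO minus Ctrl, with its standard error from limma, for the 8 tested genes (black) and other tested genes of the pathway (grey). Slc1a4 has the highest value of the black points at 0.41, Slc38a2 the lowest of the grey at -1.001, and no point passed the adjusted test.

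Among the transporters that clear glutamate, Slc1a2 (ENSMUSG00000005089, chromosome 2, 102489004 to 102621129, plus strand) measured 1498, 1602 and 1664 FPKM in A1, A2 and A8 and 1769, 1992 and 1597 in A4, A9 and A10. These gene coordinates, and those given below, are those of the deposited file. They differ from the build of the windows above (GRCm38.p6), so the 2 cannot be set beside each other. The Slc1a2 groups overlapped, because A10 lay below A2 and A8. The means were 1588 ± 83.7 in Ctrl and 1786 ± 198 in cKO (SD, n = 3), a log2 difference of 0.17 (SE 0.14, 95% interval -0.16 to 0.49, limma adjusted p = 0.869, exact permutation p = 0.3). An antisense gene, Gm13872, overlaps 1.44% of its exon length, and the counting is not stated to use strand.

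Slc1a3 (ENSMUSG00000005360, chromosome 15, 8663608 to 8740248, minus strand) measured 413, 374 and 500 FPKM in the Ctrl units and 501, 580 and 434 in the cKO units. A8 lay just under A4, and A10 fell among the Ctrl values. The means were 429 ± 64.8 and 505 ± 73.3 (SD, n = 3), a log2 difference of 0.24 (SE 0.16, 95% interval -0.15 to 0.62, limma adjusted p = 0.835, exact permutation p = 0.2). As a part of the transporter message, Slc1a2 was 78.8% ± 2.12 of the summed FPKM of Slc1a1, Slc1a2 and Slc1a3 in Ctrl and 78.0% ± 0.599 in cKO (SD, n = 3, exact permutation p = 0.8), and the groups overlapped. With the oligodendrocyte marker score as a covariate the log2 differences of Slc1a2 and Slc1a3 turned to -0.06 and -0.24, and centring on the astrocyte marker score gave -0.045 and 0.026. With 1 unit left out, Slc1a2 ran from 0.084 (without A9) to 0.24 (without A10) and Slc1a3 from 0.13 (without A9) to 0.35 (without A8).

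Slc1a1 (ENSMUSG00000024935, chromosome 19, 28812449 to 28891360, plus strand) measured 1.61, 0.814 and 0.0493 FPKM in A1, A2 and A8 and 0.688, 0.0990 and 0.438 in A4, A9 and A10. Both the highest and the lowest unit were Ctrl, and they differed 32.7-fold. The values rest on 6 to 395.5 recovered reads per library, and 31.9% of the exon length is shared with the antisense gene Spata6l, so the level is uncertain. Without the expression filter, over 28178 genes, the log2 difference was -0.30 (SE 0.37, limma adjusted p = 0.919).

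Slc1a4 (ENSMUSG00000020142, chromosome 11, 20252180 to 20282713, minus strand) was the gene with the largest difference among the 8. Its units measured 81.0, 65.8 and 89.5 FPKM in Ctrl and 96.2, 110 and 107 in cKO. Every cKO unit lay above every Ctrl unit, with A8 and A4 nearest to each other. The means were 78.8 ± 12.01 and 104 ± 7.26 (SD, n = 3), a ratio of 1.33 and a log2 difference of 0.41 (SE 0.14, 95% interval 0.08 to 0.74, limma adjusted p = 0.551, exact permutation p = 0.1, the smallest possible). It was positive under each of the 24 alternatives run, and leaving out 1 unit gave 0.29 to 0.51. Some of the 24 change only the variance estimate or the genes tested, so they return the same 0.41 and could not reverse it. The difference was 0.20 after centring on the astrocyte score and 0.27 with the oligodendrocyte score as a covariate. Relative to the sorted antigen, the ratio of Slc1a4 to Atp1b2 was 0.119 ± 0.0187 in Ctrl and 0.140 ± 0.00716 in cKO (SD, n = 3, exact permutation p = 0.2), and these groups overlapped.

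Of the enzymes, Glul (ENSMUSG00000026473, chromosome 1, 153775690 to 153785469, plus strand) had the smallest spread between units of the 9 genes. It measured 943, 1037 and 1065 FPKM in the Ctrl units and 980, 1024 and 890 in the cKO units, a spread of 1.20 times between the highest and lowest. The cKO values ran from below the lowest Ctrl unit to just under A2. The means were 1015 ± 63.8 and 964 ± 68.2 (SD, n = 3), a log2 difference of -0.07 (SE 0.12, 95% interval -0.36 to 0.21, limma adjusted p = 0.945, exact permutation p = 0.4). It was 0.0051 under upper quartile scaling, -0.28 after centring on the astrocyte score and -0.27 with the oligodendrocyte covariate, and -0.13 to -0.018 with 1 unit left out. The antisense gene Teddm2 overlaps 3.07% of the exon length of Glul, and Mir8114, a microRNA gene on the same strand, overlaps 2.46%.

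Glud1 (ENSMUSG00000021794, chromosome 14, 34032684 to 34067222, plus strand) measured 182, 210 and 220.6 FPKM in Ctrl and 228, 239 and 221.2 in cKO. The groups did not overlap, but A8 and A10 were almost equal. The means were 204 ± 19.6 and 230 ± 8.99 (SD, n = 3), a log2 difference of 0.17 (SE 0.11, 95% interval -0.09 to 0.44, limma adjusted p = 0.824, exact permutation p = 0.1). It was -0.04 after centring on the astrocyte score, 0.0013 with the oligodendrocyte covariate and 0.093 without A1.

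Got1 (ENSMUSG00000025190, chromosome 19, 43488191 to 43513044, minus strand) measured 6.34, 5.05 and 14.96 FPKM in Ctrl and 12.9, 6.51 and 10.001 in cKO. Its highest unit, A8, and its lowest, A2, were both Ctrl. The means were 8.78 ± 5.38 and 9.81 ± 3.22 (SD, n = 3), a log2 difference of 0.23 (SE 0.40, 95% interval -0.72 to 1.18, limma adjusted p = 0.953, exact permutation p = 0.7). Leaving out 1 unit moved it from -0.05 (without A2) to 0.65 (without A8), and the oligodendrocyte covariate gave -0.87.

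The glutamine carriers differed from each other in how much they varied. Slc38a3 (ENSMUSG00000010064, chromosome 9, 107527833 to 107546729, minus strand) measured 70.3, 54.5 and 79.9 FPKM in Ctrl and 64.5, 71.8 and 76.4 in cKO. All cKO values lay within the range of the Ctrl values. The means were 68.2 ± 12.8 and 70.9 ± 5.96 (SD, n = 3), a log2 difference of 0.07 (SE 0.16, 95% interval -0.31 to 0.45, limma adjusted p = 0.969, exact permutation p = 0.8). The value turned to -0.083 without A2, -0.14 after centring on the astrocyte score and -0.06 with the oligodendrocyte covariate.

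Slc38a1 (ENSMUSG00000023169, chromosome 15, 96469299 to 96540794, minus strand) measured 16.2, 16.2 and 4.02 FPKM in A1, A2 and A8 and 12.3, 5.88 and 11.9 in A4, A9 and A10. A8 and A9 were low and the other units high, regardless of genotype. The means were 12.1 ± 7.02 and 10.03 ± 3.60 (SD, n = 3), a log2 difference of -0.11 (SE 0.52, 95% interval -1.35 to 1.13, limma adjusted p = 0.984, exact permutation p = 1). The value was -0.70 without A8, turned to between 0.19 and 0.20 without A1, A2 or A9, and was 1.38 with the oligodendrocyte covariate. Its exons are overlapped by Gm56740 over 6.53% of their length. For comparison, the SD of log2(FPKM + 1) between units had a median over all genes tested of 0.333 for Ctrl and 0.233 for cKO.

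Marker lists moved with some of these values. An oligodendrocyte score, the mean log2(FPKM + 1) of 12 genes, was 6.54, 6.63 and 5.57 in Ctrl and 3.90, 4.32 and 5.20 in cKO (exact permutation p = 0.1). The cKO mean was the lower for 12 of these 12 genes. At an unadjusted p under 0.05, 12 of 12 passed, against 7.69% of all genes, and for 11 of 12 all cKO units lay below all Ctrl units, against 7.22% of all genes. By limma's adjusted p, 0 of the 12 passed. An astrocyte score of 13 genes, none of them among the 9, was 7.63, 7.82 and 7.90 in Ctrl and 7.94, 8.05 and 7.99 in cKO (exact permutation p = 0.1), with the cKO mean the higher for 12 of 13. The groups of these 2 scores do not overlap, as for Slc1a4 and Glud1, and the part of either score in the differences of the 9 genes was not tested beyond these values and the alternatives named with them.

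Endothelial markers scored 2.94, 2.40 and 0.66 in A1, A2 and A8 and 2.56, 0.87 and 0.81 in A4, A9 and A10, and ependymal markers 5.48, 5.26 and 3.66 and then 4.57, 3.39 and 4.88. Like Slc38a1 and Slc1a1, both scores were high in A1 and A2 and low in A8 and A9. The likeness was not complete. In A10 the deviation from the mean of the 6 units was -0.90 for the endothelial score and 0.34 for the ependymal score. For Slc38a1 and Slc1a1 it was 0.24 and -0.10. The part of these scores in the 2 genes was not tested. The oligodendrocyte precursor score was 3.70 in Ctrl and 3.11 in cKO, and the mural score 3.81 and 4.02. The microglia score was 1.03, 1.06 and 0.81 in Ctrl and 1.92, 1.13 and 1.11 in cKO, and its groups did not overlap (exact permutation p = 0.1). The neuron score was 0.82 and 0.53, with 6 of its 8 genes under a mean of 1 FPKM.

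**Figure D3:**
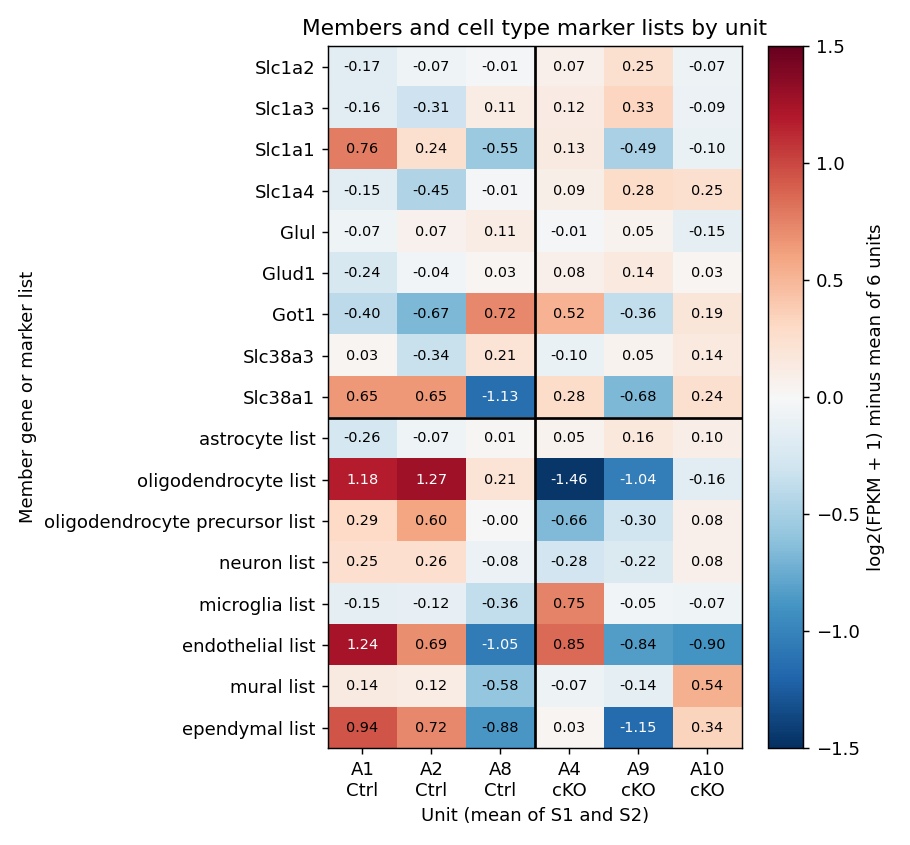
Deviation of each unit from the mean of the 6 units in log2(FPKM + 1), for the 9 genes (above the line) and for the mean of each of 8 marker lists (below it), with Ctrl units left and cKO units right. Glul and Slc1a2 stay pale across units, while Slc38a1, Got1 and Slc1a1 swing between units of 1 genotype. The endothelial and ependymal lists also swing, and Got1 goes opposite to them in A1, A2 and A8.

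Ratios within a unit do not depend on how libraries are scaled to each other. They can still change with the mix of cells, and the part of the marker scores given above was not tested. A set of 10 ratios was examined, chosen after the values had been seen. The ratio of Slc1a2 to Glul, transporter to synthetase, was 1.59, 1.54 and 1.56 in Ctrl and 1.81, 1.95 and 1.79 in cKO. All cKO units lay above all Ctrl units, with means of 1.57 ± 0.0219 and 1.85 ± 0.0843 (SD, n = 3, exact permutation p = 0.1, Benjamini-Hochberg adjusted over the 10 ratios 0.5). Relative to Atp1b2, Slc1a2 was 2.41 ± 0.224 in Ctrl and 2.40 ± 0.251 in cKO (SD, n = 3, exact permutation p = 0.9, adjusted 0.9). Glul to Atp1b2 was 1.54 ± 0.138 and 1.30 ± 0.148 (SD, n = 3, exact permutation p = 0.2, adjusted 0.5), and the groups of both ratios overlapped. The ratio of Slc1a2 to Slc1a3 was 3.63, 4.29 and 3.33 in Ctrl and 3.53, 3.43 and 3.68 in cKO, with means of 3.75 ± 0.491 and 3.55 ± 0.126 (SD, n = 3, exact permutation p = 0.8, adjusted 0.9). Here the cKO units lay inside the Ctrl range. The only other ratio of the 10 whose groups were apart was Slc1a2 to Slc1a4, at 20.5 ± 3.35 and 17.1 ± 1.95 (SD, n = 3, exact permutation p = 0.1, adjusted 0.5). Its lowest Ctrl unit (A1, 18.49) and highest cKO unit (A4, 18.40) were almost equal.

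**Figure D4:**
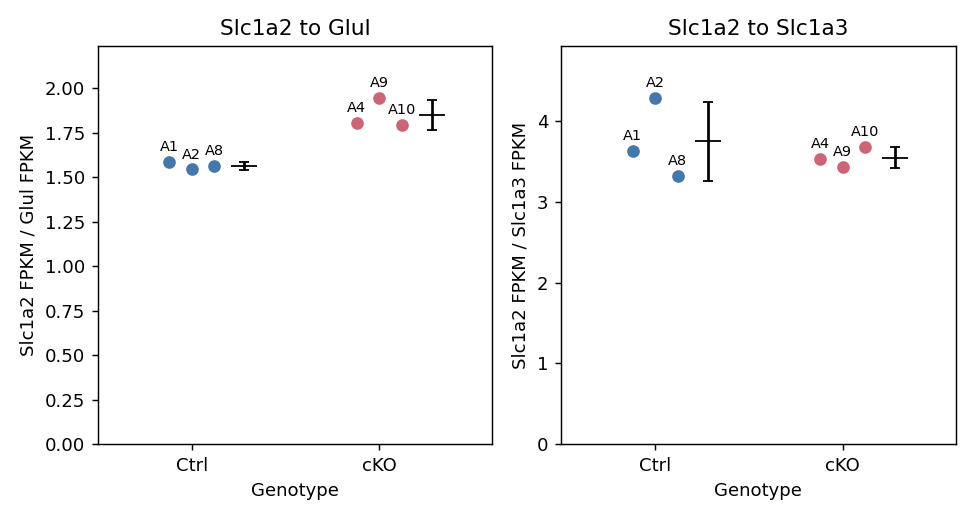
FPKM ratios of Slc1a2 to Glul (left) and Slc1a2 to Slc1a3 (right) in each unit, with the mean and SD (n = 3) beside each group. The left groups are separate, at 1.54 to 1.59 and 1.79 to 1.95, and the right groups overlap.

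Across the 6 units, 36 pairs of the 9 genes were compared on the log2 scale, and none passed adjustment. The closest pair was Slc1a1 with Slc38a1 (Pearson's r = 0.893, exact permutation p = 0.00833, adjusted 0.3, and Spearman's rho = 0.943, exact permutation p = 0.0167, adjusted 0.3), with r = 0.964 without A1 and A8. Slc1a2 and Slc1a3 gave r = 0.863 (exact permutation p = 0.0264, adjusted 0.413) and rho = 0.829 (exact permutation p = 0.0583, adjusted 0.3), with r = 0.758 without A1 and A9. Among 3958 other genes with a mean of at least 10 FPKM, those most like Slc1a2 over the 6 units were Tmem47 (r = 0.994), Tra2a (0.982) and Cst3 (0.981). For Slc1a3 they were Pag1 (0.998), Omg (0.994) and Pla2g7 (0.993), and for Glul Cdk16 (0.978), Tmem170b (0.978) and Gm20463 (0.971). With 6 points from shared libraries and so many candidates these are descriptions without a test.

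The other genes of the pathway were 28 listed by name, of which 17 could be tested. None passed the adjusted test, 12 had the higher mean in cKO and 5 the lower, and their median log2 difference was 0.08. The groups did not overlap for 1 higher gene of the 17 (Slc3a2) and 1 lower gene (Slc38a2), against 5.76% and 7.22% of all genes tested. Highest in level were Slc25a18, a mitochondrial glutamate carrier (122 FPKM over the 6 units), Mdh1, the malate dehydrogenase of the cytosol (54.5), and Slc3a2, the heavy chain of several amino acid exchangers (53.7). Lowest were the transporter Slc1a7 (0.00481), the vesicular transporter Slc17a8 (0.0133) and the enzyme Gls2 (0.196).

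Slc38a2, which encodes the system A carrier SNAT2, had the smallest p of these genes. It measured 33.6, 42.2 and 19.4 FPKM in Ctrl and 11.99, 15.1 and 17.1 in cKO. All cKO units lay below all Ctrl units, and A8 was the lowest of Ctrl. The means were 31.7 ± 11.5 and 14.7 ± 2.58 (SD, n = 3), a log2 difference of -1.001 (SE 0.29, limma adjusted p = 0.446, exact permutation p = 0.1). The oligodendrocyte score given above was also lower in every cKO unit, and its part in this value was not tested. Bcat2, a branched-chain aminotransferase, had means of 4.01 ± 1.01 and 5.89 ± 1.42 (log2 difference 0.46, SE 0.24, limma adjusted p = 0.733), and Slc3a2 50.0 ± 2.31 and 57.5 ± 4.57 (log2 difference 0.20, SE 0.11, limma adjusted p = 0.764).

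The second comparison was of S2 with S1 within units. Glul was lower in S2 in 6 of 6 units, by a small amount: its S1 values were 902 to 1080 FPKM and its S2 values 877 to 1050. The log2 difference was -0.05 (SE 0.0046, limma adjusted p = 0.00320), and it was the only 1 of the 8 genes to pass, against 1.39% of all genes tested (198 higher and 45 lower in S2). Slc1a2 and Slc1a3 were also lower in S2 in 6 of 6 units, each with a log2 difference of -0.02 (limma adjusted p = 0.136 and 0.370), and both passed when libraries were scaled by the upper quartile or the median of ratios. Without a variance trend, or without the block on the unit, 0 of the 8 passed, so the call for Glul was lost. The sample titles call S1 rep1 and S2 rep2, but what kind of replicate these are is not in the labels. The S2 library held more reads than the S1 library in every unit (28096485 to 35323327 against 17311872 to 22025823). Depth and S number therefore cannot be told apart here. A difference between genotypes in the S2 to S1 change was found for 0 genes by limma (smallest adjusted p 0.764, 831 genes at an unadjusted p under 0.05).

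**Figure D5:**
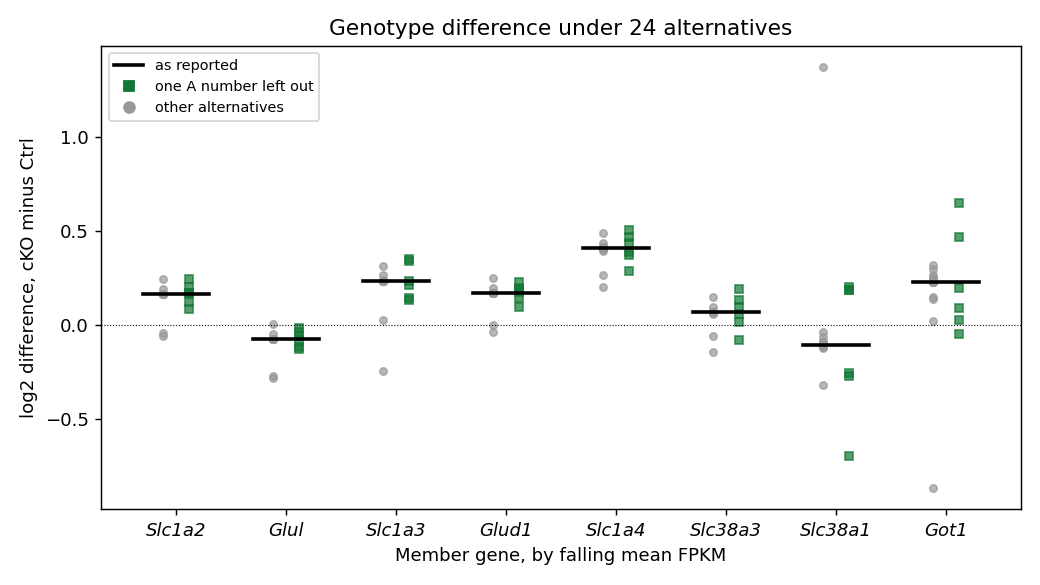
Difference in log2(FPKM + 1), cKO minus Ctrl, for the 8 tested genes as reported (black bars), with 1 unit left out (green squares) and under the other alternatives (grey circles). Slc1a4 stays above 0 throughout, from 0.20 to 0.51, and each other gene has at least 1 value on the other side of 0.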

How the data were processed

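RNA from sorted astrocytes was made into SMART-Seq V4 libraries and sequenced as paired 125 bp reads, per the labels' protocols. The submitters' processing notes name FastQC, STAR, featureCounts and DESeq2, and mm10 and GRCm38, without versions or roles. The authors deposited 1 table of FPKM values per gene (56941 rows, 56791 names, of which rows sharing a symbol were summed). Gene coordinates are those of the file: only 2.70% of 51948 matched identifiers had the same start and end as in GENCODE M21 (GRCm38), and none of the 9 genes did, so the build of the coordinates is not established.

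FPKM times length gave whole reads (within 0.02) for 82.8% to 86.3% of values above 0, so library totals are estimates. S1 and S2 were averaged per A number on the log2(FPKM + 1) scale and 3 units were set against 3 with limma 3.58.1 (lmFit and eBayes with trend) in R 4.3.3, for genes with a mean of at least 1 FPKM, adjusted over 17540 genes at a threshold of 0.05. S2 was set against S1 with the A number as a block. Permutation tests were exact and two-sided. Those between genotypes ran over 20 arrangements, and those of pairs of genes over all orders of the 6 units. For the genotype interaction with S, the variance trend was moved to the mean expression after a first run, and both runs called 0 genes. The limma scripts were tested on simulated data. All 9 genes were named in every case. Of the other pathway genes, the 3 highest, the 3 lowest and the 3 with the smallest p were named. For Slc1a2, Slc1a3 and Glul, the 3 genes with the highest r were named. The 9 genes, the lists and the tests were chosen with earlier results of these data known. A gene of the pathway list is counted in the list's totals and not reported here.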

Additional observations from a re-analysis of the deposited data

How the results depend on the processing

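Of 192 values of the 8 genes under 24 alternatives, 177 kept their direction and side of the threshold, 14 reversed and 1 passed only under the alternative. Alternatives that change only the variance estimate or the genes tested could not reverse a difference, so 177 is not a count of independent checks. The number of genes called in cKO against Ctrl was 0 in the main comparison, 1640 with the 12 libraries taken as independent samples, 112 when each unit was a random effect, and 80 when the replicate block was added to that. It was 0 to 1 with 1 unit left out (1 without A1). Among the 9 genes, 1 was called with 12 independent libraries (Slc1a4, limma adjusted p = 0.0132); this setting counts S1 and S2 of a unit as separate samples. Same-numbered libraries of the 2 groups had deviations from their group means correlated at -0.07 to 0.14. These deviations hold the differences between units, so they cannot decide whether the S numbers pair libraries. In S2 against S1, 3 genes were called under upper quartile scaling, 3 under median of ratios scaling, 0 without a variance trend and 0 without the block on the A number. Upper quartile scaling gave Glul 0.0051. Centring on the astrocyte score, which moved the median gene by -0.21, gave Slc1a2 -0.045, Glud1 -0.039 and Slc38a3 -0.14. The oligodendrocyte covariate gave Slc1a2 -0.058, Slc1a3 -0.24, Got1 -0.87, Slc38a3 -0.059 and Slc38a1 1.38. Leaving out 1 unit gave Slc38a1 -0.70 to 0.20, Got1 -0.049 to 0.65 and Slc38a3 -0.083 to 0.19. The cause of these reversals was not tested. Low read counts limit the values of Slc1a1 and Tnfrsf1b, and 3 units per genotype limit the tests.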
